A study of Mus musculus with 17 samples.

Results

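The miR-17 to miR-92 family is a set of related microRNAs (miRNAs) made from 3 clusters of hairpins in the mouse genome: miR-17-92, miR-106b-25 and miR-106a-363. The members described here are guide arms of these clusters, a guide arm being the strand of a hairpin usually held by Argonaute. They were chosen by name as members of the clusters, with earlier results of these data known. Of the 10 guide arms named, 6 had a row in the table of 1487 small RNAs (smRNAs): mmu-miR-20b-5p, mmu-miR-93-5p, mmu-miR-19a-3p, mmu-miR-19b-3p, mmu-miR-92a-3p and mmu-miR-25-3p, written without the mouse prefix mmu from here on. The other 4 (miR-17-5p, miR-18a-5p, miR-20a-5p and miR-106b-5p) were not analysed here. All 6 with a row passed the filter on low counts and were tested. The guide arms miR-106a-5p and miR-363-3p of the miR-106a-363 cluster were not among the 10 named and are described with the other arms below.

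The study sequenced smRNAs from exosomes, small vesicles shed by cells, that were isolated from mouse feces over the course of an intestinal inflammation model. Every library came from interleukin-10 knockout (IL-10 KO) mice on a C57BL/6J background, which lack the anti-inflammatory cytokine interleukin 10 and can develop colitis. The mice arrived at 4 weeks of age and were housed 1 per cage. The start-point group has 10 libraries from 10 mice, of which 7 are male and 3 female, and the end-point group has 7 libraries, 5 male and 2 female. Of the 10 mice, 6 have libraries at both times, and the first and second end-point libraries carry the same mouse identity, mouse 1. The labels give no age at either time and no treatment beyond the knockout, and wild-type libraries were not analysed here, so time, age and course of disease cannot be told apart.

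A miRNA pairs with messenger RNAs mainly through its seed, bases 2 to 8 from the 5′ end, so miRNAs that share a seed tend to share targets. The miR-17-92 transcript is a direct target of the transcription factors Myc and E2F, is high in proliferating cells and lymphocytes, and is raised in colorectal tumours. Arms with the miR-17 seed repress cell-cycle brakes such as Cdkn1a, and arms with the miR-92 seed repress the pro-apoptotic gene Bcl2l11. The miR-106b-25 hairpins lie inside the DNA replication gene Mcm7 and are made along with it.

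The 6 members fall into 3 seed groups, and their RefSeq mature sequences (assembly GRCm38.p6) show how little separates the arms within a group. The seed is in capitals.
miR-20b-5p: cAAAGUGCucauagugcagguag
miR-93-5p: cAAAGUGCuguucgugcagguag
miR-19a-3p: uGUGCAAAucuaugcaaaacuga
miR-19b-3p: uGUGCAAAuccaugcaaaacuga
miR-92a-3p: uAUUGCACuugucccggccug
miR-25-3p: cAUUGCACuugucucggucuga
With positions counted from 1 at the 5′ end, miR-93-5p differs from miR-20b-5p by C10G, A11U and A13C, miR-19b-3p differs from miR-19a-3p by U11C alone, and miR-25-3p differs from miR-92a-3p by U1C, C14U and C18U over the 21 shared positions. How reads that match closely related arms were assigned is not given in the sources used here, so values of the miR-19 arms in particular carry that uncertainty.

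The hairpins sit at 3 places. Mir17, Mir18, Mir19a, Mir20a, Mir19b-1 and Mir92-1 lie between chr14:115043671-115044506 on the plus strand, within an annotated exon of the noncoding host gene Mir17hg. Mir106b, Mir93 and Mir25 lie between chr5:138165321-138165818 on the minus strand within Mcm7, where Mir93 and Mir25 overlap annotated exons. Mir106a, Mir18b, Mir20b, Mir19b-2, Mir92-2 and Mir363 lie between chrX:52741693-52742567 on the minus strand, with no annotated host gene. The arm miR-19a-3p is encoded at chr14:115044048-115044070, miR-20b-5p at chrX:52742159-52742181, miR-93-5p at chr5:138165574-138165596 and miR-25-3p at chr5:138165332-138165353. The other two arms have a copy in each of 2 clusters, miR-19b-3p at chr14:115044358-115044380 and chrX:52741991-52742013, and miR-92a-3p at chr14:115044476-115044496 and chrX:52741854-52741874, so their counts do not say which cluster they came from.

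Library totals ran from 87527 to 178075 counts at the start-point and from 32320 to 161862 at the end-point. The 3 libraries under 75000 counts are all end-point libraries (replicates 1, 3 and 7), so low depth and the later time overlap, and 1 count is worth 30.9 CPM (counts per 1000000 counts of the library) in the shallowest. Levels are given in CPM, and tests are edgeR quasi-likelihood tests on the counts with Benjamini-Hochberg adjustment over all 1270 tested smRNAs, called at an adjusted p under 0.05. Of these smRNAs 33.7% were called (16.3% lower and 17.4% higher at the end-point), and their median log2 fold change was -0.18. Markers of cells that could shed RNA into feces were measured beside them. The summed level of 8 listed intestinal epithelium miRNAs (of 9 in the list) ran from 3226 to 19689 CPM at the start-point and from 2970 to 38181 CPM at the end-point, and 3 of the 8 were called higher and 3 lower. The 4 listed leukocyte miRNAs (of 5) summed to 387 to 3361 CPM and 237 to 3114 CPM (1 of 3 tested called, higher), the 2 smooth muscle miRNAs to 163 to 1357 CPM and 282 to 11886 CPM (1 of 2 called, higher), and the 2 listed red cell miRNAs (of 4) to 149 to 1006 CPM and 12.4 to 530 CPM (1 tested, not called). The red cell miRNA miR-451a was at 0 in 8 of 10 start-point and 3 of 7 end-point libraries. The part of these markers in the results below was not tested.

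The 6 members together took 0.204% to 0.439% of the counts of a start-point library (209 to 609 counts) and 0.0562% to 0.347% of an end-point library (85 to 193 counts). Most of their counts were miR-92a-3p. Over the 17 libraries this arm averaged 1278 CPM and ranked 128 of 1487 listed smRNAs, whereas miR-19a-3p averaged 263 CPM, miR-93-5p 244, miR-25-3p 225, miR-20b-5p 105.8 and miR-19b-3p 71.5. The order below miR-92a-3p differed between the times: by mean CPM it was miR-19a-3p (362), miR-25-3p (293), miR-93-5p (178), miR-20b-5p (161) and miR-19b-3p (88.7) at the start-point, and miR-93-5p (339), miR-25-3p (127), miR-19a-3p (122), miR-19b-3p (46.9) and miR-20b-5p (26.8) at the end-point. Neighbours below miR-92a-3p differed by less than the larger of their SDs, except miR-20b-5p and miR-19b-3p at the start-point and miR-19a-3p and miR-19b-3p at the end-point. Of the 6, 1 passed the test, miR-19a-3p, which fell, and none rose. Among all tested smRNAs 33.7% were called, 16.3% lower and 17.4% higher, and 1 of 6 is too few to be set apart from these shares. No member was called with mouse as a block (8.19% of all tested), without the shallow libraries (33.6%) or in males (17.6%), and 2 were called with library totals alone (37.8%).

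**Figure D1:**
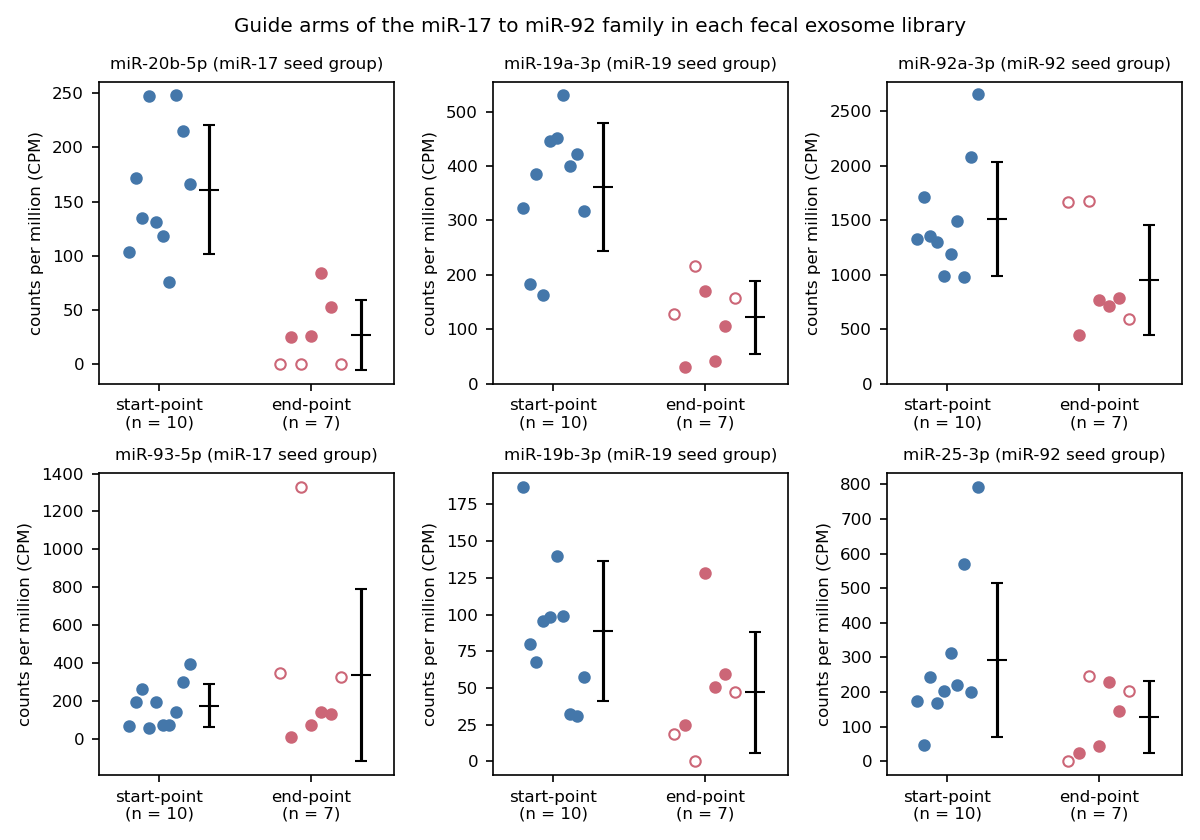
Level of each guide arm in CPM (vertical axes, linear, scaled per panel) in the start-point (blue, n = 10) and end-point (red, n = 7) libraries, with the group mean and SD beside the points; open circles are the 3 end-point libraries under 75000 counts. In 6 of 7 end-point libraries miR-20b-5p lies below every start-point library, whereas miR-93-5p is, among end-point libraries, highest in the open circles.

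The member that passed the test was miR-19a-3p, an arm of the miR-17-92 cluster. It held 163 CPM in the lowest start-point library, 393 CPM at the median and 531 CPM in the highest, against 30.9, 128 and 217 CPM at the end-point. The groups overlapped only slightly: 5 of 7 end-point libraries lay below all 10 start-point libraries, and the other two, replicates 3 and 4 at 217 and 171 CPM, lay within the lowest part of the start-point range. The mean of mmu-miR-19a-3p went from 362 ± 118 CPM (SD, n = 10) to 122 ± 67.7 CPM at the end-point (SD, n = 7), and the fitted log2 fold change was -1.25 ± 0.41 (SE), adjusted p = 0.0206. Relative to the median of all tested smRNAs it was -1.07. In bulk RNA of this kind, fewer vesicles from a cell type and less of a miRNA per vesicle cannot be told apart.

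Each of the 6 mice with both times had less miR-19a-3p at the end-point. Values by mouse, here and below, are CPM scaled by library totals alone. On that scale the median log2 fold change of all tested smRNAs was -0.65. How many of all smRNAs were lower in 6 of 6 mice was not counted. The largest drop was in mouse 7, from 531 to 42.2 CPM, and the smallest in mouse 3, from 385 to 217 CPM. With mouse as a block the log2 fold change was -1.51 and the adjusted p 0.082. The call was also lost without the 3 shallow libraries (-1.03, adjusted p = 0.111), in male libraries alone (-1.39, adjusted p = 0.077) and without end-point replicate 7 (-1.12, adjusted p = 0.0564). The direction was the same in all of these.

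Its seed partner miR-19b-3p, which has a second copy on chromosome X, was rare. It ran from 30.7 to 187 CPM at the start-point with a median of 87.7, and from 0 to 128 CPM at the end-point with a median of 47.0, and in counts that is at most 29 in any library. The groups overlapped: only 3 end-point libraries lay below all start-point libraries, and replicate 4 at 128 CPM lay near the top. The fitted log2 fold change of -0.29 ± 0.63 (SE) did not pass the test (adjusted p = 0.743), and it was 0.46 without the 3 shallow libraries. Of the 6 mice, 3 were lower and 3 higher at the end-point. The error is larger than the value, and the difference between the miR-19 arms was not tested.

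Within the miR-17 seed group the members pointed opposite ways, though neither passed the test. The arm miR-20b-5p, from the chromosome X cluster, held 75.8 to 248 CPM at the start-point (median 150) and 0 to 84.4 CPM at the end-point (median 24.7). All but replicate 5, at 84.4 CPM, lay below every start-point library. At the start-point mmu-miR-20b-5p averaged 161 ± 59.7 CPM (SD, n = 10), and at the end-point 26.8 ± 32.1 (SD, n = 7). The log2 fold change was -1.63 ± 0.67 (SE), with an adjusted p of 0.0612.

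The 3 end-point libraries with no count of miR-20b-5p are the 3 shallow libraries, in which 0 counts still allow up to 54.8 CPM (replicate 1), 92.8 CPM (replicate 3) and 47.0 CPM (replicate 7). For replicate 3 that limit reaches into the start-point range. The 4 deeper end-point libraries held 24.7, 25.7, 84.4 and 53.0 CPM. Without the 3 shallow libraries the log2 fold change was -0.74, adjusted p = 0.111. In 6 of 14 other processing choices, DESeq2 among them (-1.55, adjusted p = 0.00491), and without end-point replicate 5 (-2.10, adjusted p = 0.0302), miR-20b-5p did pass. It was lower at the end-point in 5 of 6 mice, and in mouse 7 it was 75.8 and then 84.4 CPM.

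The miR-93-5p arm, from the Mcm7 locus, was the only member whose fitted change was positive. It held 61.8 to 396 CPM at the start-point (median 169) and 12.4 to 1330 CPM at the end-point (median 143), so the medians were close and the difference lay in a few libraries. The 3 shallow end-point libraries held 347, 1330 and 329 CPM, and the 4 deeper ones 12.4, 77.0, 143 and 132 CPM. The log2 fold change of 1.03 ± 0.46 (SE) had an adjusted p of 0.079, and without the shallow libraries it was 0.12 (adjusted p = 0.846). It passed when the libraries of mouse 1 were summed (1.14, adjusted p = 0.0354) and without end-point replicate 2 (1.21, adjusted p = 0.0308), which is the library at 12.4 CPM. In the 3 libraries where miR-20b-5p was at 0, the arm that differs from it by 3 bases was at its highest for the end-point.

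**Figure D2:**
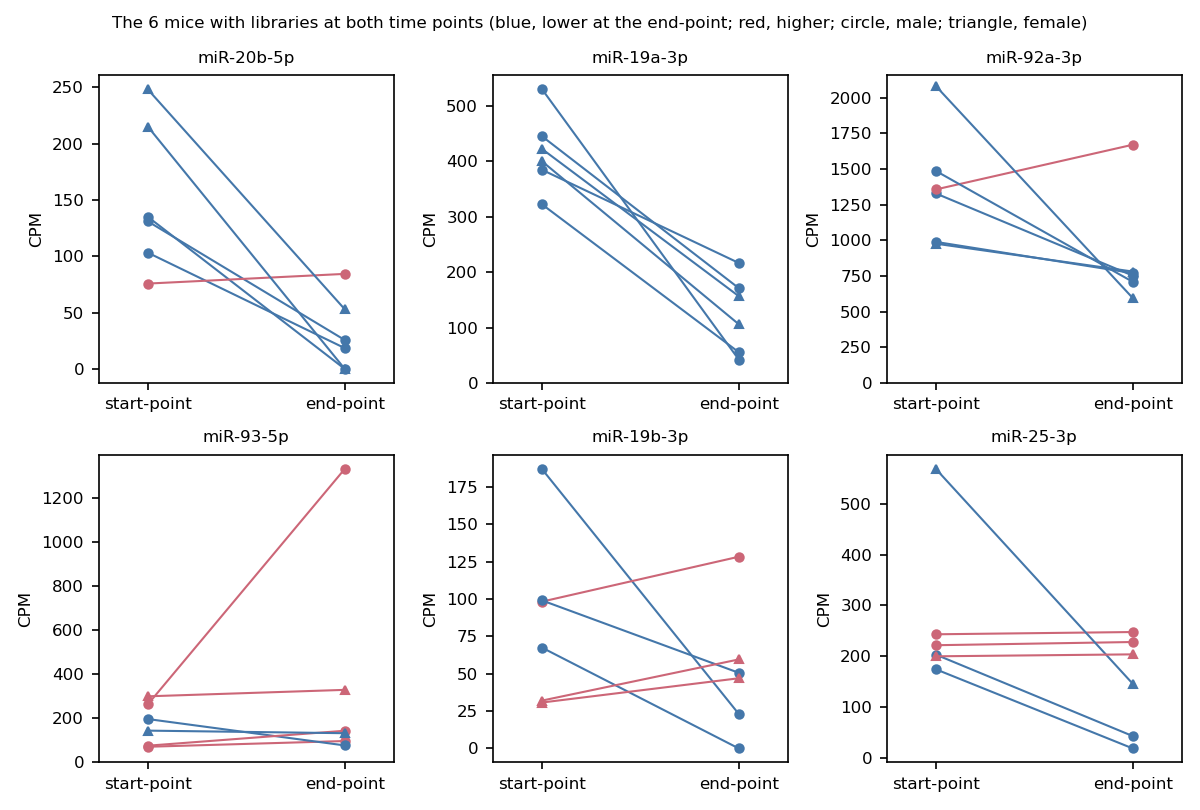
CPM of the 6 guide arms at the start-point and end-point in the 6 mice with libraries at both times (vertical axes, linear, scaled per panel; the end-point value of mouse 1 is that of its 2 libraries summed). Lines go down in all 6 mice for miR-19a-3p, in 5 of 6 for miR-20b-5p and miR-92a-3p, and in 3 of 6 for miR-19b-3p and miR-25-3p. For miR-25-3p the lines that rise are nearly flat.

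The dominant arm, miR-92a-3p, known for limiting blood vessel growth as well as for its role in the cluster, held 977 to 2660 CPM at the start-point (median 1343) and 445 to 1671 CPM at the end-point (median 770). The end-point libraries split: replicates 1 and 3 held 1662 and 1671 CPM, inside the start-point range, and the other 5 held 445 to 781 CPM, below every start-point library. By mouse, 5 of 6 were lower at the end-point, and mouse 3 went from 1357 to 1671 CPM. The start-point mean of mmu-miR-92a-3p was 1509 ± 522 (SD, n = 10) and the end-point mean 948 ± 504 CPM (SD, n = 7). The log2 fold change was -0.28 ± 0.35 (SE), adjusted p = 0.568. The fold change includes TMM scaling factors (trimmed mean of M values), which CPM does not. With library totals alone the value was -0.66, but then the median of all smRNAs was -0.65 as well.

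The other miR-92 seed arm, miR-25-3p, shares the Mcm7 transcript with miR-93-5p and had a Spearman's rho with it of -0.093 over the 17 libraries. It held 45.7 to 793 CPM at the start-point (median 212) and 0 to 248 CPM at the end-point (median 146), with most of the start-point spread due to replicates 8 and 10 at 568.4 and 793 CPM. The log2 fold change was -0.72 ± 0.55 (SE), adjusted p = 0.321, and 3 of 6 mice were lower at the end-point. In end-point replicate 3, where miR-93-5p reached 1330 CPM on 43 counts, miR-25-3p stood at 248 CPM on 8 counts.

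As a list, 5 of the 6 members had a negative fitted change and 1 a positive one, with a median log2 fold change of -0.50 beside -0.18 over all 1270 tested smRNAs. Levels of the members followed each other weakly across the 17 libraries. Spearman's rho of log2 CPM had a median of 0.31 over the 6 pairs that share a cluster, -0.032 over the 9 pairs that do not, and -0.032 over the 3 pairs that share a seed, beside 0.017 over all pairs of tested smRNAs. On deviations from the group means, which leave out the difference between times, these medians were 0.29, -0.31, -0.38 and 0.012. Over all 15 pairs of members the median was 0.19, and 0.012 on deviations. Here miR-19b-3p and miR-92a-3p were counted in both of their clusters, although their counts do not say which cluster they came from. Only miR-93-5p with miR-25-3p shares a cluster without either of these arms. That pair had a rho of -0.093, and 0.18 on deviations. The medians therefore do not show whether arms of a cluster follow each other. The highest pair was miR-19a-3p with miR-19b-3p at 0.47, and the lowest were miR-93-5p with miR-19b-3p at -0.63 and with miR-20b-5p at -0.53. These pairs share libraries, depth and time point, and the values are a description. The 3 other tested smRNAs whose levels were most like those of miR-92a-3p over the 17 libraries were miR-7034-3p (rho 0.87), miR-23a-5p (0.80) and miR-7673-5p (0.79).

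Seed groups were compared first as shares of the members' own counts. The miR-92 seed pair took most of them at both times, with 68.6% ± 5.7 (SD, n = 10) before and 70.0% ± 9.9 (SD, n = 7) after. The miR-19 pair took 18.4% ± 6.6 and 11.9% ± 6.6, with a range of 8.54% to 26.3% and of 6.25% to 24.6%, and the miR-17 pair 13.0% ± 4.0 and 18.1% ± 10.8. All 3 ranges overlapped between the times. The highest miR-17 share, 38.4%, was that of end-point replicate 3, and without the shallow libraries the difference in the mean share changed from 5.10 to -1.11 percentage points.

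Seed groups were then tested as whole seed families, with every listed miRNA that carries the seed summed before the fit. The collapsed table had 1133 tested rows, of which 33.3% were called. The summed miR-17 seed family (seed AAAGUGC: miR-20b-5p, miR-93-5p, miR-106a-5p and miR-6383) rose. Its start-point level was 587 ± 215 CPM (SD, n = 10) and its end-point level 897 ± 649 (SD, n = 7), a log2 fold change of 1.12 ± 0.33 (SE), adjusted p = 0.0117. Most of its end-point counts were those of miR-6383, which lies outside the 3 clusters, at chrX:136183262-136183282, and shares the seed but little of the rest.
miR-6383: uAAAGUGCugugucacggaca
It made up 28.1% of the family's counts at the start-point and 65.8% at the end-point, pooled over libraries. On its own miR-6383 rose by 2.26 ± 0.42 (SE) on the log2 scale, adjusted p = 0.000332, and was higher at the end-point in 6 of 6 mice, though with mouse as a block its adjusted p was 0.056. With miR-6383 and the other same-seed miRNAs outside the clusters kept apart, the cluster arms of the miR-17 seed gave 0.04, adjusted p = 0.942. The family's call was lost as well with mouse as a block (1.01, adjusted p = 0.201), with library totals alone (0.62, adjusted p = 0.266) and in males (1.14, adjusted p = 0.072).

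**Figure D3:**
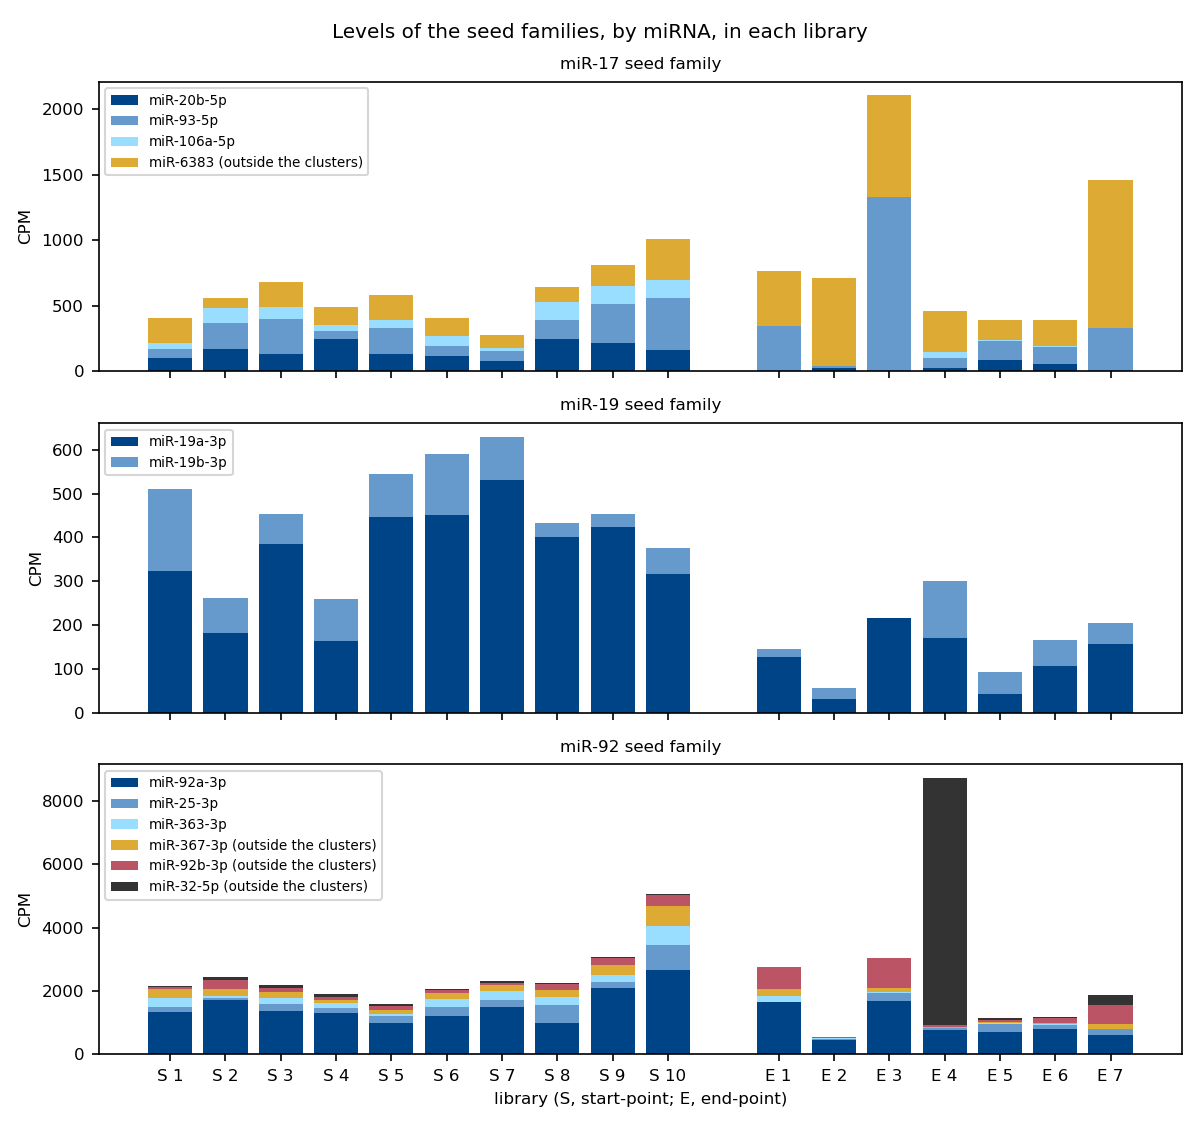
Stacked CPM (vertical axes, linear from 0) of every listed miRNA with the miR-17, miR-19 or miR-92 seed, for each start-point (S) and end-point (E) library. The yellow part, miR-6383, fills much of the miR-17 family at the end-point, and the black part in E 4 is miR-32-5p at 7811 CPM.

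For the miR-19 seed family (seed GUGCAAA) the 2 members are the only listed miRNAs. Its sum was 258 to 630 CPM at the start-point (median 453) and 55.6 to 299 CPM at the end-point (median 166), and 6 of 7 end-point libraries lay below all start-point libraries. The log2 fold change was -0.90 ± 0.41 (SE), adjusted p = 0.0916. It passed with library totals alone (-1.41, adjusted p = 0.0108), with DESeq2 (-0.99, adjusted p = 0.0492), and without start-point replicate 9 (adjusted p = 0.0497), start-point replicate 10 (0.0407) or end-point replicate 4 (0.0105). The family did not pass with mouse as a block (-1.20, adjusted p = 0.154) or in males (-1.14, adjusted p = 0.136). Without the shallow libraries the value was -0.58 (adjusted p = 0.330).

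The miR-92 seed family (seed AUUGCAC) holds 6 listed miRNAs and ran from 1579 to 5060 CPM at the start-point and from 525 to 8735 CPM at the end-point. Its log2 fold change of 0.93 ± 0.49 (SE) did not pass (adjusted p = 0.152) and was decided by 1 library: end-point replicate 4 held 913 counts of miR-32-5p, or 7811 CPM, against at most 91.4 CPM in any start-point library. Without that library the family's value was -0.24 (adjusted p = 0.608), and with miR-32-5p, miR-367-3p and miR-92b-3p kept apart it was -0.37 (adjusted p = 0.41). Of those outside the clusters, miR-367-3p fell (-1.33 ± 0.45 (SE), adjusted p = 0.0241; 0.121 with mouse as a block) and miR-92b-3p rose (1.21 ± 0.42 (SE), adjusted p = 0.0264; 0.226 with mouse as a block). The latter held 712, 928 and 611 CPM in the shallow end-point libraries and 24.7 to 152 CPM in the others, and gave 0.03 (adjusted p = 0.952) without them.

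A second list holds the opposite arms of the members' hairpins and both arms of the other hairpins of the chromosome X cluster (Mir106a, Mir18b and Mir363). Of its 18 arms, 11 had a row, 9 were tested, 3 rose and 3 fell, where 33.7% of all tested smRNAs were called. The members of this list were chosen with earlier results known, so the count is a description, and the list was not tested against the members. With mouse as a block, miR-18b-3p (adjusted p = 0.0356) and miR-363-3p (0.0408) were called. When end-point replicate 2 was also left out, miR-18b-3p (0.038) and miR-19b-1-5p (0.038) were called and miR-363-3p was not (0.0563). When that library was treated as mouse 2, none of the 9 was called, with 0.0814 for miR-18b-3p and 0.0683 for miR-363-3p.

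**Figure D4:**
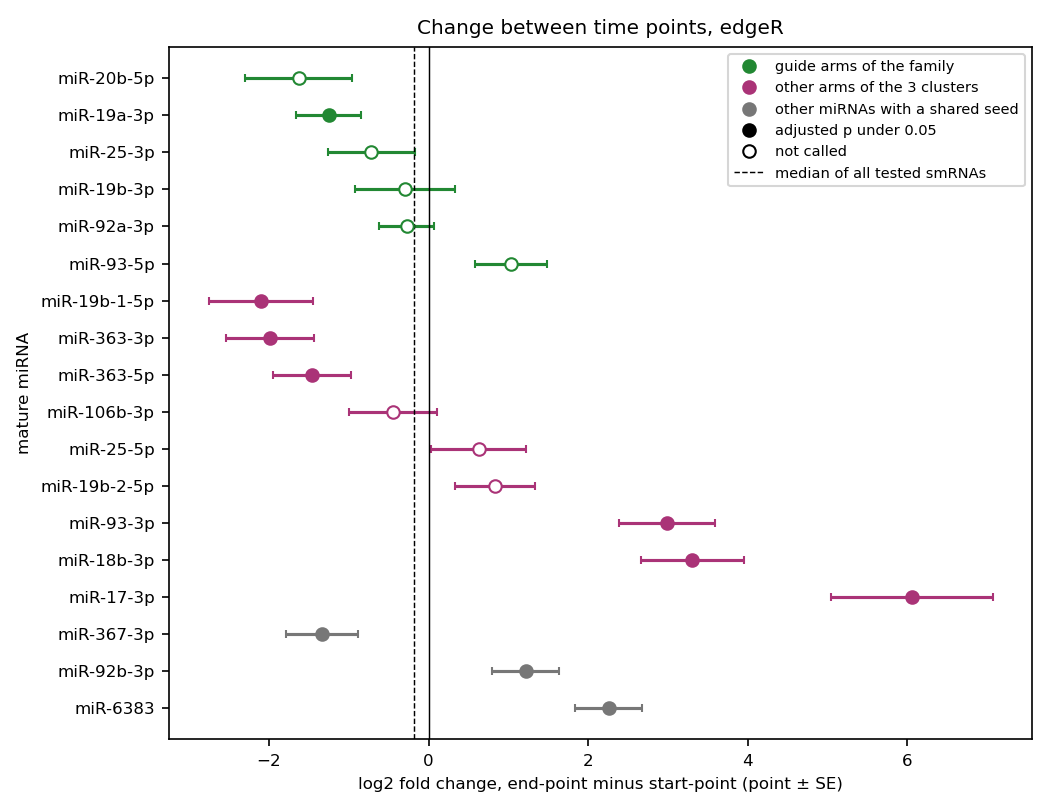
Log2 fold change from start-point to end-point (horizontal axis, point and SE, edgeR) of the 6 guide arms (green), the other tested arms of the 3 clusters (purple) and tested miRNAs outside them with a shared seed (grey); filled points have an adjusted p under 0.05, and the dashed line is the median of all tested smRNAs at -0.18. Of the 6 green points only miR-19a-3p is filled. The filled purple points include miR-363-3p, the guide arm of Mir363, at -1.99, and miR-17-3p lies farthest right at 6.06.

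The largest log2 fold change among the 15 tested arms of the 3 clusters was that of miR-17-3p, the arm opposite miR-17-5p. Its seed is not that of the guide, and it shares it with miR-20b-3p.
miR-17-3p: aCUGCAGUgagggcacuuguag
miR-20b-3p: aCUGCAGUgugagcacuucuag
In the start-point libraries miR-17-3p held 11.4 to 568.4 CPM (median 36.5), with 8 of the 10 at or below 72.1 CPM. At the end-point it held 2009, 9656, 371, 94.1, 9276, 4118 and 313 CPM in replicates 1 to 7, the highest on 1563 counts. The log2 fold change was 6.06 ± 1.01 (SE), adjusted p = 0.000131. It was 4.81 with library totals alone, 5.10 without end-point replicate 2 and 7.81 in males, and passed the test in each. Among the mice 5 of 6 were higher at the end-point, and mouse 11 went from 522 to 313 CPM. With mouse as a block the value was 3.8 and the adjusted p 0.114. In contrast, miR-20b-3p had 4 to 19 counts at the start-point and at most 3 at the end-point, too few to be tested, and was lower in 6 of 6 mice.

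The other arms that rose were miR-93-3p and miR-18b-3p. Opposite miR-93-5p, miR-93-3p was at 104 to 858 CPM at the start-point and at 3945, 13861 and 2004 CPM in the shallow end-point libraries, but at 130 to 371 CPM in the 4 deeper ones. Its log2 fold change of 2.99 ± 0.60 (SE), adjusted p = 0.000807, was 0.61 (adjusted p = 0.221) without the shallow libraries and 1.91 without end-point replicate 3 alone, and its adjusted p was 0.072 with mouse as a block. From the chromosome X cluster, miR-18b-3p ran from 12.9 to 177 CPM at the start-point and reached 2382, 2036 and 470 CPM in end-point replicates 3, 7 and 6, with 12.4 to 152 CPM in the rest. Its log2 fold change was 3.31 ± 0.65 (SE), adjusted p = 0.000564. Without the shallow libraries, which include replicates 3 and 7, it was 2.12 (adjusted p = 0.0083).

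The 3 arms that fell were miR-19b-1-5p, miR-363-3p and miR-363-5p. The groups did not overlap for miR-19b-1-5p, which arises from the chromosome 14 copy of miR-19b alone: it held 236 to 531 CPM at the start-point (median 384) and 0 to 86.5 CPM at the end-point (median 59.1). End-point values wholly below the start-point values were found in 5.12% of tested smRNAs. Its log2 fold change was -2.10 ± 0.65 (SE), adjusted p = 0.0151, with 0.0722 when mouse was a block and 0.0698 in males, and it was -1.24 without the shallow libraries (adjusted p = 0.0254). The miR-92 seed arm miR-363-3p fell by 1.99 ± 0.55 (SE) on the log2 scale, adjusted p = 0.00757, from 80.0 to 598 CPM at the start-point to 0 to 164 CPM at the end-point. Its partner miR-363-5p fell by 1.46 ± 0.48 (SE), adjusted p = 0.0213, with 0.185 when mouse was a block. The call of miR-363-5p was also lost without start-point replicate 8 (0.0542), start-point replicate 10 (0.0562) or end-point replicate 4 (0.0506). All 3 arms were lower at the end-point in 6 of 6 mice.

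From the same chromosome X cluster, miR-106a-5p, a miR-17 seed arm that differs from miR-20b-5p by C10A and U12C, held 23.3 to 138 CPM (4 to 19 counts) at the start-point. It had 0 counts in 4 of 7 end-point libraries and at most 5 counts in the others, did not pass the filter and was not tested. Like miR-363-3p and miR-363-5p it was lower in 6 of 6 mice.

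The balance of the 2 arms of a hairpin was also taken within each library, which does not depend on the library total. The guide arm was the minor product for Mir93, at 18.9% to 58.1% of the hairpin's counts at the start-point (median 32.7%) and 8.09% to 35.1% at the end-point (median 14.1%). For Mir25 it was mostly the major product, with medians of 74.3% at the start-point and 59.7% in the 6 end-point libraries with a count. For Mir20b the medians were 69.6% and 57.1% (5 end-point libraries with a count), and for Mir363 they were 45.2% and 33.3%. The miR-19b guide made up a median of 14.2% and 18.8% of the counts of its hairpins, whose 2 copies were summed. All these ranges overlapped between the times. Several end-point shares rest on very few counts, such as the 100% for Mir25 in replicate 3 on 8 counts, and no test was made.

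**Figure D5:**
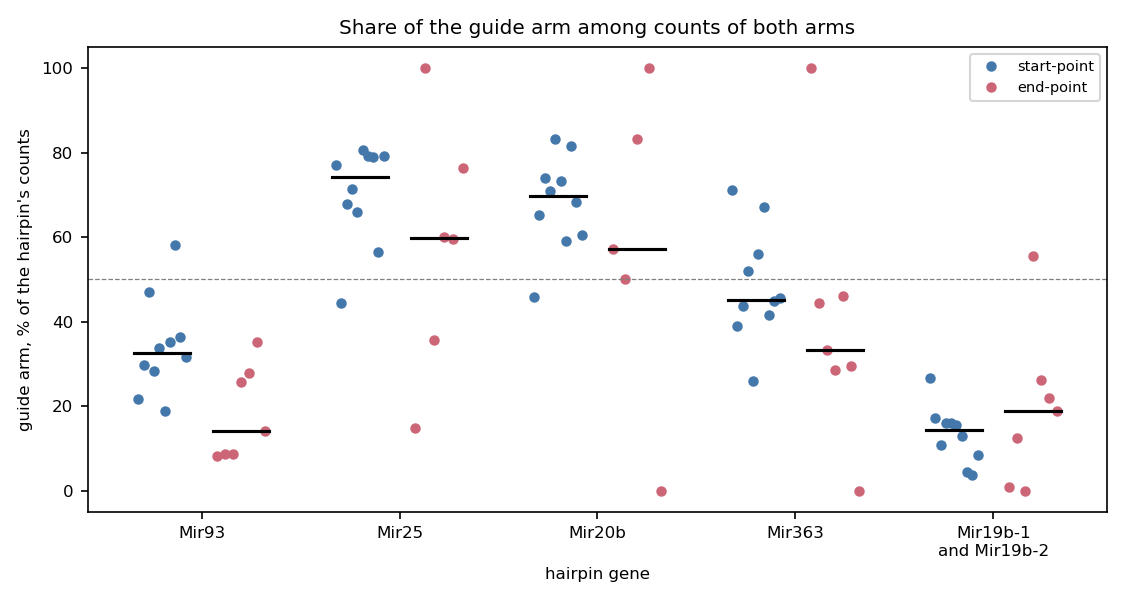
Guide arm as a percent of the counts of both arms of a hairpin (vertical axis) in each start-point (blue) and end-point (red) library that has a count, for the 6 hairpins with both arms listed, of which Mir19b-1 and Mir19b-2 are summed; black bars are medians and the dashed line marks equal counts. The Mir93 points lie mostly below the line, with a median of 32.7% at the start-point and 14.1% at the end-point.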

How the data were processed

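The authors deposited whole-number counts per smRNA and library. Per the labels' protocols, exosomes were precipitated from filtered fecal homogenate and libraries were made with a miRNA kit that attaches unique molecular identifiers. The submitters' processing notes name bcl2fastq and GRCm38 without a role, and the aligner, counting tool, filters and use of the identifiers in the deposited counts are not given in the sources used here. No listed smRNA has a maximum over libraries under 10 counts.

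Counts were tested with edgeR 4.0.16 in R 4.3.3 (glmQLFit with its current estimation, glmQLFTest, TMM factors, filterByExpr, Benjamini-Hochberg over all 1270 tested smRNAs) with time point as the only term over 17 libraries. CPM values, those by mouse included, leave out TMM factors. Correlations took log2 CPM with these factors and 2 as prior count. For seed families, counts were summed by bases 2 to 8 of the RefSeq mature sequence, which matched 1254 of 1439 miRNA rows, giving 1314 rows. Limits for 0 counts use 3 counts and cover counting error only. The labels' mouse identity gives the pairing: over 7 pairs of libraries of the same mouse, deviations from the group means correlated at a mean of 0.094 (-0.072 to 0.26). Where nothing else is said, 2 libraries of mouse 1 count as separate end-point libraries.

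The named smRNAs are all members, the other cluster arms that were called, and the 3 smRNAs most like the most abundant member. Members and lists were chosen with earlier results of these data known, and the miRNAs with a shared seed outside the clusters, and the arms named without a call, after their values were seen. Alternatives covered scaling, filters, DESeq2 1.42.0, limma-voom (limma 3.58.1), mouse as a block, the shallow libraries, males alone and each library left out. Simulated counts for this comparison held 1270 smRNAs, 200 of them changed by 2 on the log2 scale, and 1232 of the 1270 passed the filter. Of the changed smRNAs that passed it, 69.3% were recovered, and 3.73% of calls were false. The 1133 simulated seed families left 1098 after the filter. Among the changed families that passed it, 72.9% were recovered, and 4.76% of calls were false. Apart from the set changes, the simulated libraries were drawn independently from the same mean profile scaled to each total. Pairing by mouse and differences in TMM factors were left out, so these rates may not hold for the data.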

Additional observations from a re-analysis of the deposited data

Results flagged for a closer look

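In 9 of 42 groups of libraries examined, the highest library stood apart from the others by Dixon's criterion. The groups included the 6 members and the other arms and same-seed miRNAs that were called, each at 2 times. They also included miR-106a-5p, miR-20b-3p and miR-32-5p. The arms miR-19b-2-5p, miR-106b-3p and miR-25-5p, which were not called, were not examined. For normally distributed values chance alone marks about 1 in 20 such groups. CPM from few counts need not be so distributed, and the groups share libraries. End-point replicate 3, the shallowest library, held 1330 CPM of miR-93-5p and 13861 CPM of miR-93-3p, the 2 arms of Mir93. Start-point replicate 10 stood apart for miR-363-3p (598 CPM), miR-363-5p (714 CPM), miR-367-3p (620 CPM) and miR-6383 (310 CPM). End-point replicate 1 stood apart for miR-363-3p with 164 CPM, which is 9 counts. End-point replicate 4 stood apart for miR-32-5p with 7811 CPM and for miR-106a-5p with 42.8 CPM, the latter on 5 counts.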

How the results depend on the processing

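Depth limits the rarer members most: in the 3 libraries under 75000 counts, 3 counts are worth 47.0 to 92.8 CPM, and miR-20b-5p and miR-19b-3p have start-point medians of 150 and 87.7 CPM. Leaving out 1 library at a time, the number of all smRNAs called stayed between 365 and 463 (428 with all 17 libraries), and the number of members called between 0 and 2. All smRNAs called were 104 with mouse as a block, 85 when end-point replicate 2 was also left out, 114 when it was treated as mouse 2, and 211 in males. The 3 fits with this replicate block, the males and the fit without the shallow libraries called 0 of 6 members. Library totals alone, the DESeq2 Wald test, limma-voom with or without mouse as a random effect, and the estimation of earlier edgeR versions called 2, and summing the libraries of mouse 1 called 3. Library totals alone also changed the balance of all calls to 153 higher of 480, and limma-voom to 122 higher of 362, beside 221 higher of 428. The value of miR-19b-3p reversed to 0.46 without the shallow libraries; 6 of 17 fits with 1 library left out gave it no value because it did not pass the filter.

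The miR-17 seed family gave 0.62 with library totals alone, 1.01 with mouse as a block, 0.79 without end-point replicate 2 as well, 0.98 with it as mouse 2, 1.14 in males and 0.040 with other same-seed miRNAs kept apart, all short of the threshold. The miR-19 seed family passed with library totals alone (-1.41) and the DESeq2 Wald test (-0.99), and ran from -1.35 to -0.76 with 1 library left out. It fell short of the threshold with mouse as a block (-1.20), in males (-1.14) and without the shallow libraries (-0.58). The miR-92 seed family reversed to -0.32 with the DESeq2 Wald test, to -0.37 with other same-seed miRNAs kept apart, and ran from -0.24 to 1.07 with 1 library left out, -0.24 without end-point replicate 4. Apart from what keeping miRNAs apart or leaving libraries out does by construction, the cause was not tested. The miR-17 share of the members' counts was 5.10 percentage points higher at the end-point, and 1.11 lower (-1.11) without the shallow libraries. The estimation of earlier edgeR versions and the separation of same-seed miRNAs were chosen after seeing the data. Mouse as a fixed block changed no call of a guide arm other than that of miR-19a-3p.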
